A study of Mus musculus with 8 samples.

Results

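The genes described here are 32 genes of hematopoietic stem cell identity, chosen by symbol from the 29955 gene names listed for every library and covering transcription and chromatin factors (15 genes), receptors and other surface proteins (12 genes) and intracellular or metabolic proteins (5 genes). All 32 symbols were present. They were followed in 8 RNA-seq libraries of sorted mouse bone marrow in 4 groups of 2 libraries: WT LSK, Ripk3-KO LSK, WT LK and Ripk3-KO LK. LSK cells lack lineage markers and carry Sca1 and Kit, and hold the hematopoietic stem and progenitor cells (HSPCs). LK cells are labeled Lin- Kit+, with Sca1 not mentioned in the label, and were sorted as Sca1-negative myeloid progenitors (MPs) according to the study's methods. The mice were wild type or Ripk3-KO (a germline deletion in all cells of the animal) on a background labeled CD57BL6/J, and their ages are not given in the labels. The labels state that RNA was taken with no treatment. The study instead describes its RNA-seq cells as collected about a month after weekly fractionated low-dose X-irradiation of both genotypes. The study bought its WT mice and maintained its Ripk3-KO line, and a treatment that differs between the genotypes is stated in neither source. The labels do not say whether the libraries of a group came from separate mice, so the p-values measure the spread between these libraries, which may be technical.

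Hematopoietic stem cells divide rarely, renew themselves and give rise to every blood lineage. Their identity is held by a network of DNA-binding factors (among them GATA2, RUNX1, ERG, FLI1, MEIS1, MECOM and HLF), while surface proteins such as EPCR (the product of Procr), ESAM and the angiopoietin receptor TIE2 (the product of Tek) are used to isolate them, and several of these are also made by endothelial cells. As stem cells become committed myeloid progenitors, many of these transcripts are lost while others, such as Runx1 and Fli1, stay in use. RIPK3 is the kinase that drives necroptosis, a lytic form of cell death.

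The sequences just before the start sites of 4 members are given. Of these members, Hlf, Meis1 and Pdzk1ip1 were called higher in LSK than in LK cells and Tek was not. A difference between Tek and the other members was not tested. The sequences are RefSeq promoter sequences on GRCm38.p6, cut to the bases that lie before the start in both RefSeq and GENCODE. All are written 5′ to 3′ on the strand of the gene. The stretches are chr11:90390918-90391167 on the minus strand for Hlf, chr11:19018986-19019219 on the minus strand for Meis1, chr4:115088458-115088707 on the plus strand for Pdzk1ip1 and chr4:94739039-94739288 on the plus strand for Tek. Capitals mark matches to motifs searched on both strands.
Hlf: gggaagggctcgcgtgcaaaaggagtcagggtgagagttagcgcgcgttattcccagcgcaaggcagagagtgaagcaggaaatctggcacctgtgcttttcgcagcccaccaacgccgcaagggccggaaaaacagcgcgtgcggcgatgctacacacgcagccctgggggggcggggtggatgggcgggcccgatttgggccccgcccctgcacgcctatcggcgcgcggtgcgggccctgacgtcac
Meis1: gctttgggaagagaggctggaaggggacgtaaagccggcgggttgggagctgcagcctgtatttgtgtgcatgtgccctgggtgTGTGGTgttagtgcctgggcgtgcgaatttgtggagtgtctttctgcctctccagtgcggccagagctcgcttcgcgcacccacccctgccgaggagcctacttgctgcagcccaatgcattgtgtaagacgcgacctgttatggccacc
Pdzk1ip1: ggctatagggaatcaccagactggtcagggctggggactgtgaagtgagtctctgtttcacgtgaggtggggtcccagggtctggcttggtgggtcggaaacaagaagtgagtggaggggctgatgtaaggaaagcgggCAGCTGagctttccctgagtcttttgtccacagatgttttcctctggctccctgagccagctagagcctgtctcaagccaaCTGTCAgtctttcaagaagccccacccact
Tek: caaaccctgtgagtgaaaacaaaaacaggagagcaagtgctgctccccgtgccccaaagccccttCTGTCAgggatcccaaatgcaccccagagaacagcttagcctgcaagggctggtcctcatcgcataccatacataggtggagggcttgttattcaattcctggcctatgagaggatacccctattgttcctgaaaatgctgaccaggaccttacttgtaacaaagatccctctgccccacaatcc
In these stretches the capitals are a RUNX match (TGTGGT) in Meis1, an E-box (CAGCTG) and a MEIS match (TGACAG, on the other strand) in Pdzk1ip1 and a MEIS match in Tek. The stretch before Hlf held no match to the letters searched.

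The motifs were counted in windows of 300 bases, 250 before and 50 after the start, for the 27 members with a promoter entry. Eya1, Fli1, Tcf15, Esam and Clec1a were not matched. An ETS motif (CCGGAAG) was present in 3.70% of these member windows and in 9.14% of all 27025 gene promoters. A GATA motif (AGATAA) was present in 3.70% of member windows and 11.4% of all, and the RUNX motif in 7.41% and 16.9%. The MEIS motif was present in 14.8% of member windows against 19.3% of all, the E-box in 22.2% against 16.1%, and the PAR bZIP motif of the HLF family (TTANNTAA) in 7.41% against 6.10%. The ETS match was in the Meis1 window and the GATA match in the Tek window, both outside the stretches shown. No overlapping matches occurred in the 4 stretches shown. A match describes letters in this window and is not evidence of binding.

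Total reads per library, recovered from the deposited values, ran from 9782166 to 16280811, and 18254 to 20358 genes had a value above 0. The deposited values are called signal here: CPM, the reads of a gene relative to the total of its library, scaled by a library factor (TMM) computed separately in LSK and in LK libraries, without division by gene length. A single read was worth 0.0621 to 0.104 signal, and the limit that a count of 0 allows (3 reads) was 0.186 to 0.311, which covers counting error only. Ripk3 signal was 162 and 168 in WT LSK, 3.38 and 1.08 in Ripk3-KO LSK, 144 and 150 in WT LK and 16.2 and 10.6 in Ripk3-KO LK libraries, so the knockout libraries were low in both populations. The gate was checked by Ly6a (the gene of Sca1), with 141 to 237 in LSK and 0.124 to 4.12 in LK libraries. All WT libraries held Xist and no reads of Eif2s3y, and all Ripk3-KO libraries held Eif2s3y (47.0 to 98.8) and Xist at 0 to 1.27, so genotype and sex cannot be told apart. Late granule genes of neutrophils were also higher in Ripk3-KO, with summed signal of 2379 and 2802 against 712 and 770 in LSK, and 1708 and 1704 against 791 and 788 in LK.

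Members differed widely in level when signal was divided by the length of the longest protein-coding transcript in GENCODE M21. In WT LSK cells, Ifitm1 (an interferon-induced membrane protein) had 753 and Cd81 (a tetraspanin) 323 signal per kb, followed by Txnip with 102, Pdzk1ip1 with 99.7 and Esam with 72.6. Gata2 led the transcription factors with 58.5 signal per kb, ahead of Etv6 with 46.4 and Meis1 with 41.0. At the low end were Clec1a with 1.55, Prdm16 with 1.04 and Neo1 with 0.984 signal per kb. In WT LK cells Cd81 (186), Ifitm1 (103) and Gata2 (52.5 signal per kb) were at the top, and Ndn, at 0.0368, was at the bottom. Replicates of a group differed by a median of 0.28 to 0.34 on the log2(signal + 1) scale over the members, and most in Neo1 in WT LSK, where they differed by 1.74.

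**Figure D1:**
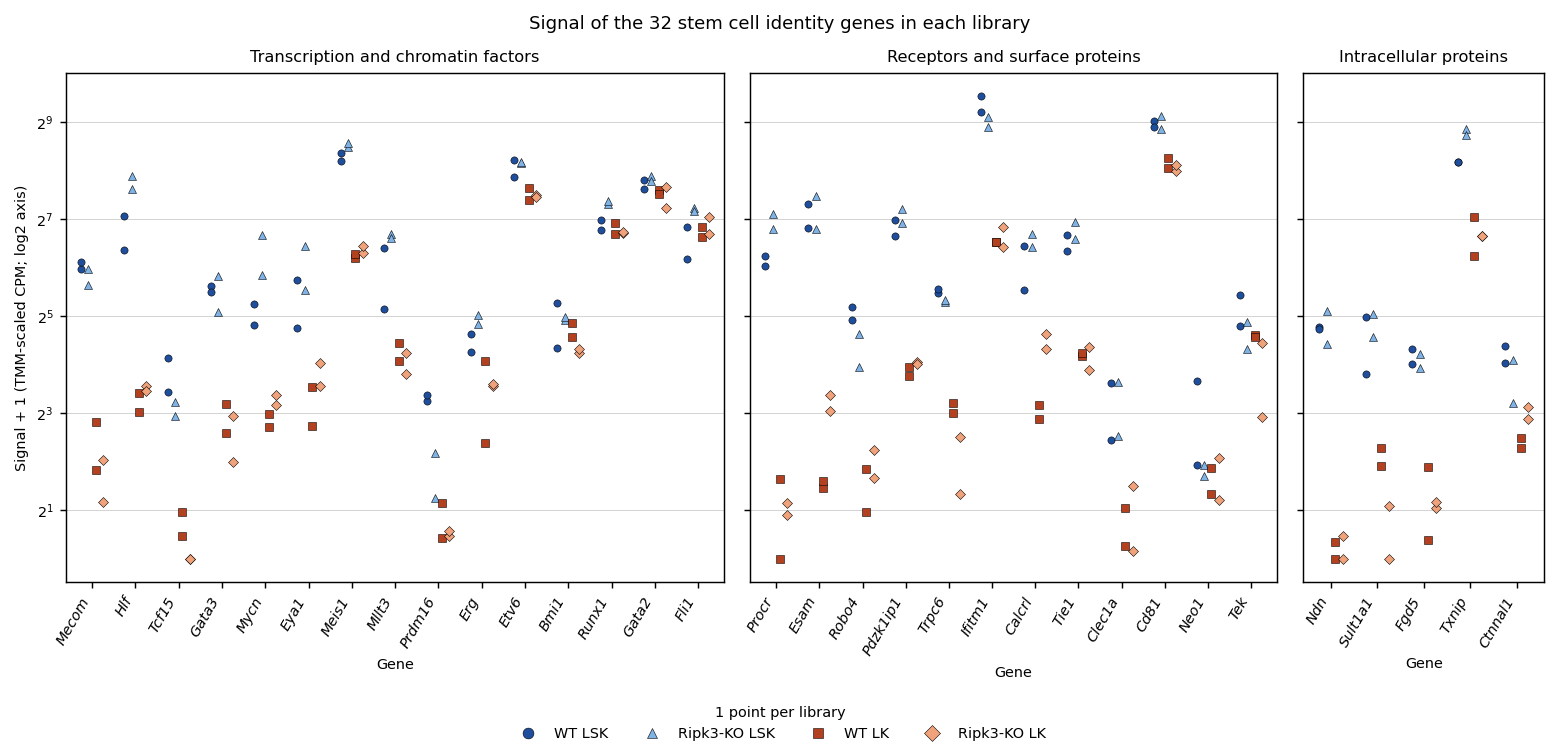
Signal + 1 (log2 axis; CPM scaled by TMM separately in LSK and LK libraries) of each of the 32 members, with 1 point per library and 4 groups distinguished by color and shape. Most members had LSK libraries far above LK libraries (Procr at 64.2 to 137 against 0 to 2.14), while Gata2 lay at 195 to 235 in LSK and 149 to 201 in LK libraries.

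The first comparison asked which members set LSK cells apart from LK cells. LSK and LK libraries were rescaled together for this test. Compared with the deposited values, this lowered LSK relative to LK by 0.37 in log2 of the signal. Fold changes, taken on log2(signal + 1), fell by less for low genes, as for Ndn in WT (4.39 against 4.59 as deposited). In WT mice 23 of the 32 members were higher in LSK and 0 were lower (limma, adjusted p under 0.05 over 15950 genes), while 9.16% of all genes tested were called higher, 14.8% lower and 23.9% either way. In Ripk3-KO mice 22 of 32 members were higher and 0 lower, against 7.95% higher, 12.2% lower and 20.2% either way among 15237 genes. Members with a mean under 1 in LK (Prdm16, Tcf15, Clec1a and Ndn in WT, and Prdm16, Tcf15, Ndn and Sult1a1 in Ripk3-KO) entered the test through their LSK level alone and could be called in 1 direction only. Of the other 28 members, 19 were called higher in each genotype. The median log2 fold change of the members was 1.95 in WT and 2.0 in Ripk3-KO, and that of all genes was 0.08 and 0.00. At an unadjusted p under 0.05 there were 25 members in WT (38.1% of all genes) and 22 in Ripk3-KO (31.4% of all genes), and edgeR and DESeq2 also called 0 members lower. The WT and Ripk3-KO comparisons contrast different libraries, but they share 1 fit, its estimate of spread and the joint scaling. In both comparisons 21 members were higher. Both LSK libraries lay above both LK libraries for 24 of 32 members in WT (32.8% of all genes) and 27 of 32 in Ripk3-KO (27.5% of all genes). In bulk RNA, fewer cells of a type and less RNA per cell cannot be told apart.

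Among transcription factors, Hlf, a PAR bZIP factor of stem cells, had signal of 132 and 80.7 in WT LSK against 9.71 and 7.10 in WT LK. In Ripk3-KO it had 197 and 237 in LSK against 10.8 and 9.94 in LK. The populations did not overlap in either genotype, and the log2 fold change was 3.14 ± 0.32 (SE) in WT (limma adjusted p = 2.38e-07) and 3.89 ± 0.32 in Ripk3-KO (adjusted p = 5.96e-09). Mecom, which encodes the zinc finger factor EVI1 required for stem cell maintenance, had 61.6 and 68.0 in WT LSK against 2.58 and 6.11 in WT LK. In Ripk3-KO its signal was 48.9 and 62.0 in LSK and 1.27 and 3.10 in LK, so all LSK libraries again stood above all LK libraries. Its log2 fold change was 3.37 ± 0.47 in WT and 3.89 ± 0.47 in Ripk3-KO (limma adjusted p = 2.19e-05 and 2.24e-06). Meis1, a homeobox partner of HOX proteins and the member whose upstream stretch held the RUNX match, was at 292 to 376 in LSK and 71.9 to 86.5 in LK libraries. It rose by 1.68 ± 0.19 in WT and 1.78 ± 0.19 in Ripk3-KO on the log2 scale (limma adjusted p = 1.5e-06 and 4.65e-07).

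Tcf15, a bHLH factor found in quiescent stem cells, was close to the limit of detection in LK cells. Its signal was 16.7 and 9.84 in WT LSK, 8.44 and 6.65 in Ripk3-KO LSK, 0.951 and 0.382 in WT LK, and 0 in both Ripk3-KO LK libraries. Against the limit of 3 reads per library, its mean in Ripk3-KO LSK was at least 30.9-fold higher than in LK, and in WT the log2 fold change was 2.83 ± 0.62 (limma adjusted p = 0.00209). Gata3, a GATA factor of lymphoid and stem cells, had 33.0 to 55.5 in LSK and 2.98 to 8.15 in LK libraries, with log2 fold changes of 2.32 ± 0.46 and 2.65 ± 0.45. Mycn, a MYC family member, had 27.1 to 101 in LSK and 5.57 to 9.32 in LK libraries, with log2 fold changes of 1.84 ± 0.41 in WT and 2.64 ± 0.40 in Ripk3-KO. Eya1, a phosphatase and transcriptional coactivator, was at 26.0 to 86.3 in LSK and 5.65 to 15.4 in LK libraries, and rose by 1.77 ± 0.43 and 1.83 ± 0.43. The Eya1 calls were lost without the first WT LSK or second WT LK library (1.28 and 1.36, adjusted p = 0.0970 and 0.0764) and without the second Ripk3-KO LSK or first Ripk3-KO LK library (1.39 and 1.59, adjusted p = 0.110 and 0.0543). The last of the factors called in both genotypes was Mllt3, a reader of acylated histones that sustains human stem cells. Its WT LSK libraries, at 83.9 and 34.2, were far apart, and its WT LK libraries were at 20.9 and 16.0. The Ripk3-KO libraries were tighter, at 102 and 96.5 in LSK and 12.9 and 17.9 in LK. The Mllt3 log2 fold change was 1.15 ± 0.36 in WT (limma adjusted p = 0.0261) and 2.26 ± 0.36 in Ripk3-KO (adjusted p = 9.11e-05), but the WT call was lost without the first LSK library (0.51, adjusted p = 0.367) and without the first or the second LK library (1.34 and 0.95, adjusted p = 0.0731 and 0.157).

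Prdm16, a histone methyltransferase of stem cells, passed the test only in WT. Its signal was 8.54 and 9.43 in WT LSK, 3.54 and 1.37 in Ripk3-KO LSK and 0.340 to 1.22 in LK libraries. The log2 fold change was 2.29 ± 0.63 in WT (limma adjusted p = 0.0112) and 1.01 ± 0.64 in Ripk3-KO (adjusted p = 0.305), and the difference between the genotypes was not called (interaction adjusted p = 0.630). Without the first WT LK library the WT call was lost (log2 fold change 1.90, adjusted p = 0.141).

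The other 6 factors were not called in either genotype, and they include the early hematopoietic regulators that myeloid progenitors also use. Gata2 had 223 and 195 in WT LSK against 192 and 183 in WT LK, and 235 and 218 against 149 and 201 in Ripk3-KO. Its log2 fold change on the joint scale was -0.21 ± 0.20 in WT and 0.02 ± 0.20 in Ripk3-KO. The order of the WT libraries depended on the scaling, with both LSK libraries above both LK libraries as deposited and below them after joint scaling. Runx1, the core-binding factor of definitive hematopoiesis, had 108 and 125 in WT LSK against 102 and 119 in WT LK, with a log2 fold change of -0.29 ± 0.21. In Ripk3-KO the Runx1 values were 157 and 164 in LSK and 103 and 105 in LK, and the log2 fold change was 0.25 ± 0.21 (limma adjusted p = 0.459), or 0.62 with the values as deposited (adjusted p = 0.0378). Etv6, an ETS repressor, had log2 fold changes of 0.16 ± 0.19 and 0.32 ± 0.19. The Etv6 result depended on the scaling, and it was called higher in LSK with the values as deposited (0.53 and 0.69, limma adjusted p = 0.0475 and 0.0113) and after quantile normalization (0.65 and 0.72, adjusted p = 0.0185 and 0.00773). Fli1, an ETS factor, had 70.8 and 113 in WT LSK against 114 and 97.3 in WT LK, with a log2 fold change of -0.60 ± 0.24 (limma adjusted p = 0.0703), which was called without the second LSK library (-0.93, adjusted p = 0.0254) and in median-centred libraries (-0.71, adjusted p = 0.0279). In Ripk3-KO Fli1 was at 149 and 142 in LSK and 102 and 130 in LK (log2 fold change -0.04 ± 0.24). Erg, a further ETS factor, had log2 fold changes of 0.89 ± 0.49 and 1.0 ± 0.48, with WT LK libraries at 4.21 and 15.8. Without the second of these the WT value was 1.74 and was called (adjusted p = 0.0317). Bmi1, a subunit of Polycomb complex PRC1, had -0.27 ± 0.37 in WT and 0.30 ± 0.37 in Ripk3-KO. A missed threshold does not show that these factors had equal levels in the populations.

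**Figure D2:**
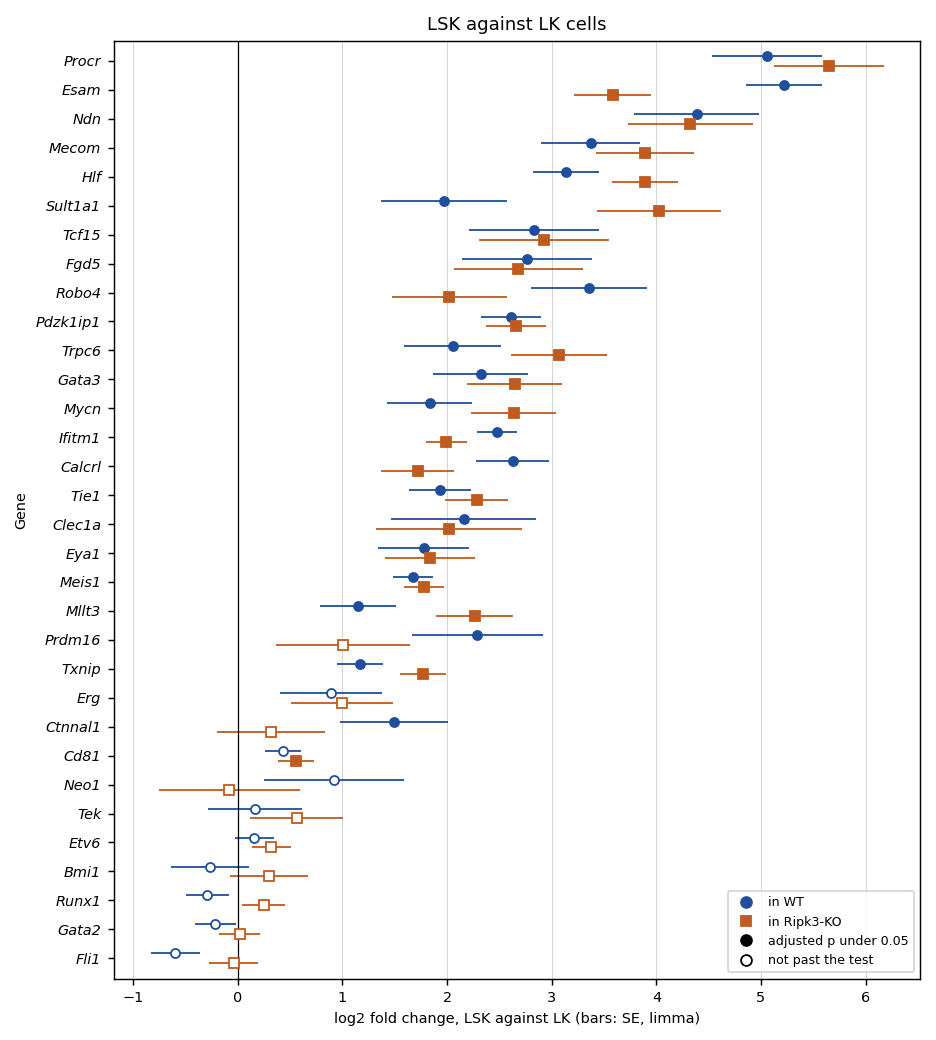
Log2 fold change of each member in LSK against LK cells (x axis; bars are SE from limma) in WT and Ripk3-KO libraries, with filled symbols for an adjusted p under 0.05. Procr, Esam and Ndn are at the top, and the factors Gata2, Runx1, Fli1 and Bmi1 lie near 0 at the bottom, all with open symbols.

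The largest differences in WT cells were found among the surface proteins. Procr, the activated protein C receptor, had signal of 64.2 and 74.0 in WT LSK and 137 and 110 in Ripk3-KO LSK. In LK it was 0 and 2.14 in WT and 1.20 and 0.869 in Ripk3-KO, a level near the detection limit in some libraries. Its log2 fold change was 5.06 ± 0.53 in WT and 5.65 ± 0.53 in Ripk3-KO (limma adjusted p = 4.39e-07 and 5.66e-08). Esam, an adhesion molecule of tight junctions and stem cells, had 159 and 112 in WT LSK and 178 and 110 in Ripk3-KO LSK. The WT LK libraries were at 1.77 and 2.06 and the Ripk3-KO LK libraries at 7.23 and 9.31, so the contrast with LSK was 5.22 ± 0.37 in WT and 3.58 ± 0.37 in Ripk3-KO (limma adjusted p = 7.32e-10 and 2.04e-07). Robo4, a roundabout family receptor that helps to hold stem cells in the bone marrow, had 14.4 to 35.7 in LSK and 0.951 to 3.73 in LK libraries. The log2 fold change of Robo4 was 3.36 ± 0.55 in WT and 2.02 ± 0.55 in Ripk3-KO. The Ripk3-KO call of Robo4 was lost without either the first Ripk3-KO LSK library or the first Ripk3-KO LK library (adjusted p = 0.112 and 0.0960).

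Calcrl, the receptor for calcitonin gene-related peptide and adrenomedullin, had 45.6 to 102 in LSK libraries. It was at 7.95 and 6.34 in WT LK and 23.9 and 18.9 in Ripk3-KO LK, with log2 fold changes of 2.62 ± 0.35 and 1.72 ± 0.35 (limma adjusted p = 1.04e-05 and 0.000985). Pdzk1ip1, a small membrane protein whose promoter has been used to mark stem cells, had 100.1 to 146 in LSK and 12.5 to 15.7 in LK libraries, with log2 fold changes of 2.61 ± 0.29 and 2.66 ± 0.29. Ifitm1 had 476 to 736 in LSK and 85.2 to 113 in LK libraries, with log2 fold changes of 2.47 ± 0.19 and 1.99 ± 0.19. Trpc6, a calcium channel, had 38.3 to 45.9 in LSK and 1.52 to 8.32 in LK libraries, and rose by 2.05 ± 0.46 and 3.07 ± 0.46. Clec1a, a C-type lectin, was low everywhere, at 4.47 to 11.5 in LSK and 0.124 to 1.84 in LK libraries. Its log2 fold changes were 2.16 ± 0.69 and 2.02 ± 0.70, and both were called. The WT call was lost without the second WT LSK library or either WT LK library. The Ripk3-KO call was lost without the second Ripk3-KO LSK or the second Ripk3-KO LK library. Log2 fold changes in these fits were 1.30 to 2.58. Over all alternatives Clec1a was called in 6 of 14 in WT and 5 of 15 in Ripk3-KO.

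Of the angiopoietin receptors, Tie1 was called in both genotypes and Tek in neither. Tie1, the orphan partner of TIE2, had 79.7 to 122 in LSK and 13.8 to 19.5 in LK libraries, and rose by 1.93 ± 0.30 in WT and 2.28 ± 0.30 in Ripk3-KO (limma adjusted p = 7.36e-05 and 7.45e-06). Tek had 42.1 and 26.6 in WT LSK against 23.4 and 22.7 in WT LK, and 28.4 and 19.0 against 6.60 and 20.8 in Ripk3-KO. The Tek log2 fold change was 0.16 ± 0.45 and 0.56 ± 0.45 and was not called in either genotype (adjusted p = 0.814 and 0.430). The difference between Tie1 and Tek was not tested. Cd81 had 458 to 553 in LSK and 253 to 306 in LK libraries and was the member with the smallest called change, 0.56 ± 0.17 in Ripk3-KO (limma adjusted p = 0.0240), beside 0.43 ± 0.17 in WT (adjusted p = 0.0720). The WT value was called with the values as deposited (0.80, adjusted p = 0.00227), after quantile normalization (0.90, adjusted p = 0.000384) and by DESeq2 (0.48, adjusted p = 0.0304). The Ripk3-KO call of Cd81 was lost without the first Ripk3-KO LSK library or either Ripk3-KO LK library. Neo1, a netrin and repulsive guidance molecule receptor, had 11.7 and 2.80 in WT LSK and 1.30 to 3.23 in all other libraries, and was not called.

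All 5 intracellular proteins were higher in WT LSK cells and 4 in Ripk3-KO LSK cells. Ndn, the imprinted growth suppressor necdin, had 20.3 to 33.4 in LSK libraries against 0.272 (4 reads) and 0 in WT LK and 0.380 (6 reads) and 0 in Ripk3-KO LK. Its fitted log2 fold change was 4.39 ± 0.60 and 4.33 ± 0.59, a size that depends on the pseudocount of 1 at such low LK levels. Fgd5, an exchange factor for CDC42 whose locus is used as a stem cell reporter, had 14.1 to 19.0 in LSK and 0.305 to 2.72 in LK libraries, with log2 fold changes of 2.76 ± 0.62 and 2.68 ± 0.62. The WT call of Fgd5 was lost without the second WT LK library (adjusted p = 0.0590).

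Sult1a1, a sulfotransferase, had 13.1 to 31.9 in LSK libraries, 2.79 and 3.89 in WT LK and 1.14 and 0 in Ripk3-KO LK. It rose by 1.97 ± 0.60 in WT and 4.03 ± 0.59 in Ripk3-KO (limma adjusted p = 0.0207 and 3.24e-05). The Ripk3-KO value rests on 18 and 0 reads in LK and ran from 3.43 to 5.99 over the alternatives. The WT call was lost without the first WT LSK library or either WT LK library. It was also lost in edgeR, and in limma with a pseudocount of 0.1, without the filter, after quantile normalization and without the trend. Txnip, the thioredoxin-interacting protein that restrains glucose uptake, had 287 and 288 in WT LSK and 458 and 425 in Ripk3-KO LSK against 74.0 to 132 in LK. The log2 fold change of Txnip was 1.16 ± 0.22 and 1.77 ± 0.22. Ctnnal1, an alpha-catenin relative, passed the test only in WT (1.49 ± 0.52, limma adjusted p = 0.0402), a call that was lost when any of the 4 WT libraries was left out (adjusted p from 0.0805 to 0.159), and the Ripk3-KO value was 0.32 ± 0.51. Its interaction was not called (adjusted p = 0.600).

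Markers of other cells differed between LSK and LK libraries as well. The summed signal of 12 endothelial markers was 282 to 394 in LSK and 145 to 202 in LK libraries. Of these, the defining endothelial cadherin gene Cdh5 stayed at 0.884 to 3.48 in LSK and 0.824 to 1.68 in LK, Pecam1 was lower in LSK (log2 fold change -0.85 ± 0.25 in WT), and Emcn (3.32 ± 0.45) and Egfl7 (1.32 ± 0.24) were higher; 2 markers were called higher and 1 lower of 8 tested in WT, and 4 and 2 of 9 in Ripk3-KO. Immediate-early genes, which respond rapidly to dissociation and to signals, had summed signal of 25133 to 28527 in LSK and 8564 to 10400 in LK libraries. Stromal markers summed to 43.8 to 98.0 in LSK and 28.2 to 36.2 in LK libraries, with 2 of 8 tested higher and 0 lower in WT and 1 of 8 higher and 0 lower in Ripk3-KO. Mature lymphocyte markers summed to 78.8 to 106 in LSK and 47.1 to 68.9 in LK libraries, with 2 of 6 higher in WT, 1 of 6 in Ripk3-KO and 0 lower. Of the immediate-early genes, 8 of 10 were higher in WT and 9 of 10 in Ripk3-KO. The part of any of these groups in the LSK to LK difference of the members was not tested.

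Genes that work with the members were counted beside the 23.9% (WT) and 20.2% (Ripk3-KO) of all genes called either way. Of the binding partners of the member transcription factors, 4 were higher and 3 lower of 21 tested in WT LSK, and 8 higher and 1 lower of 21 in Ripk3-KO LSK. Hoxa9 (a HOX partner of MEIS1) rose by 1.44 ± 0.34 and 1.83 ± 0.34, and Lmo2 (the bridging protein of GATA and bHLH complexes) by 1.09 ± 0.16 and 1.40 ± 0.16. Tcf3, an E protein, was lower by -0.87 ± 0.23 and -0.65 ± 0.23. Of the Polycomb partners of Bmi1, 1 of 15 was higher and 2 lower in WT LSK, and 3 were higher and 0 lower in Ripk3-KO LSK, which is 20.0% in each genotype and no more than among all genes. Of the ligands and partners of the member receptors, 5 of 14 tested were higher in WT and 2 of 12 in Ripk3-KO, with 0 lower in both. Angpt1, the ligand of TIE2, had signal of 196 to 261 in LSK and 53.6 to 65.9 in LK libraries (log2 fold changes 1.51 ± 0.21 and 1.66 ± 0.21), whereas its receptor Tek was not called. Ramp1, the coreceptor that makes the Calcrl product a CGRP receptor, had 530 to 865 in all libraries, and Ramp2, which makes it an adrenomedullin receptor, had 0 to 2.49.

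Among 30 further stem cell genes, 15 were higher and 2 lower in WT LSK, and 15 higher and 1 lower of 29 tested in Ripk3-KO LSK. Of all genes, 9.16% were called higher and 14.8% lower in WT, and 7.95% and 12.2% in Ripk3-KO. The list includes Ly6a, whose product defines the LSK gate, so its difference was set by the sort. Ltb (lymphotoxin beta) rose by 3.92 ± 0.41 and 5.75 ± 0.40, Nkx2-3 (a homeobox factor) by 4.17 ± 0.58 and 3.93 ± 0.58, and Vldlr by 3.32 ± 0.38 and 3.58 ± 0.38. Markers of granulocyte-monocyte progenitors gave the opposite picture, with 11 of 12 lower in LSK in each genotype. Mpo (myeloperoxidase) was lower by -3.62 ± 0.16 and -3.78 ± 0.16 on the log2 scale. Of the erythroid and megakaryocyte markers, 6 of 11 were lower and 0 higher in WT LSK, and 7 lower and 2 higher in Ripk3-KO LSK.

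**Figure D3:**
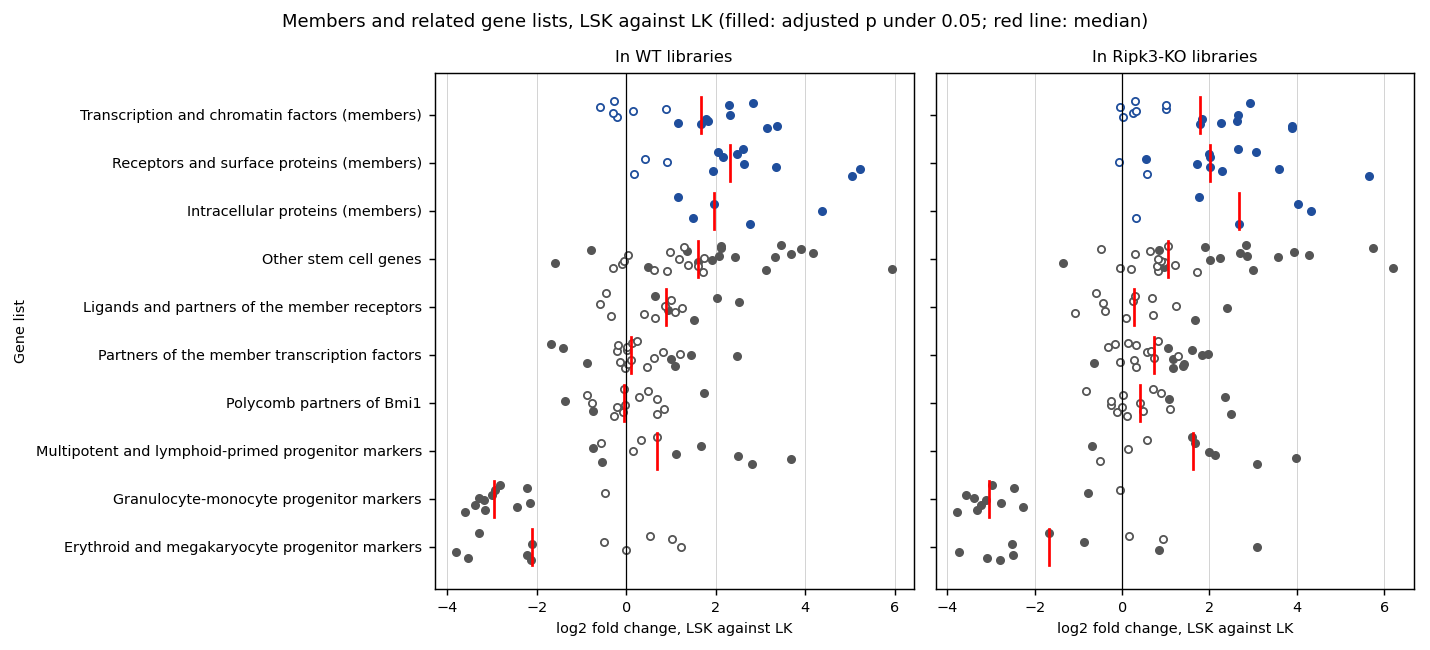
Log2 fold change in LSK against LK cells (x axis) for the members by role and for 7 related gene lists (y axis), in WT and in Ripk3-KO libraries, with 1 point per gene, filled for an adjusted p under 0.05, and a red line at the median of the list. The member lists had medians of 1.68 to 2.68, and the granulocyte-monocyte list had medians of -2.97 and -3.05.

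The second comparison asked whether the loss of Ripk3 changed the members in LSK cells, and none was called. Of the 32 members, 0 passed the test (limma, over 16817 genes) while 2.16% of all genes did, 0.892% higher and 1.27% lower. At an unadjusted p under 0.05 there were 7 members, or 21.9%, against 17.9% of all genes, and an edgeR quasi-likelihood test of the reads called 0 and DESeq2 2 (Hlf and Mycn). Both Ripk3-KO libraries lay on one side of both WT libraries for 9 members on the higher side (21.4% of all genes) and 5 on the lower side (23.2% of all genes), or 43.8% together against 44.6% of all genes. The median log2 fold change of the members was 0.12 (0.0013 without the second WT library, 0.24 without the second Ripk3-KO library and 0.012 in median-centred libraries), and that of all genes was -0.01.

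The largest values belonged to transcription factors. Mycn, with 36.8 and 27.1 in the WT libraries and 101 and 56.1 in the knockout libraries, had a log2 fold change of 1.23 ± 0.40 (limma adjusted p = 0.116). Hlf had 132 and 80.7 in WT against 197 and 237 in Ripk3-KO, or 1.05 ± 0.31 (adjusted p = 0.0856). Prdm16 had the largest negative value, -1.61 ± 0.63 (adjusted p = 0.183), on 3.54 and 1.37 signal in Ripk3-KO. The libraries of the 2 genotypes did not overlap for any of these 3 genes. Mllt3 (0.87 ± 0.36), Fli1 (0.69 ± 0.24), Txnip (0.62 ± 0.22) and Runx1 (0.46 ± 0.20) made up the rest of the 7 genes with an unadjusted p under 0.05. None of the 12 surface proteins reached an unadjusted p under 0.05 in LSK cells. The nearest was Ifitm1, with 592 and 736 in WT libraries and 476 and 548 in knockout libraries (-0.37 ± 0.19, adjusted p = 0.311).

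The precision of the LSK comparison differed between members. The 95% interval of the log2 fold change had a median half-width of 0.87, and it stayed within a 2-fold change in either direction for 10 members: Meis1, Gata2, Runx1, Etv6, Bmi1, Tie1, Esam, Cd81, Ifitm1 and Pdzk1ip1. For Gata2 it ran from -0.28 to 0.52 and for Cd81 from -0.32 to 0.37. For the other 22 members a 2-fold change lay inside the interval, as for Procr, from -0.24 to 1.89, and Ndn, from -1.22 to 1.22. These genes may have changed by amounts that 2 libraries per group could not show.

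**Figure D4:**
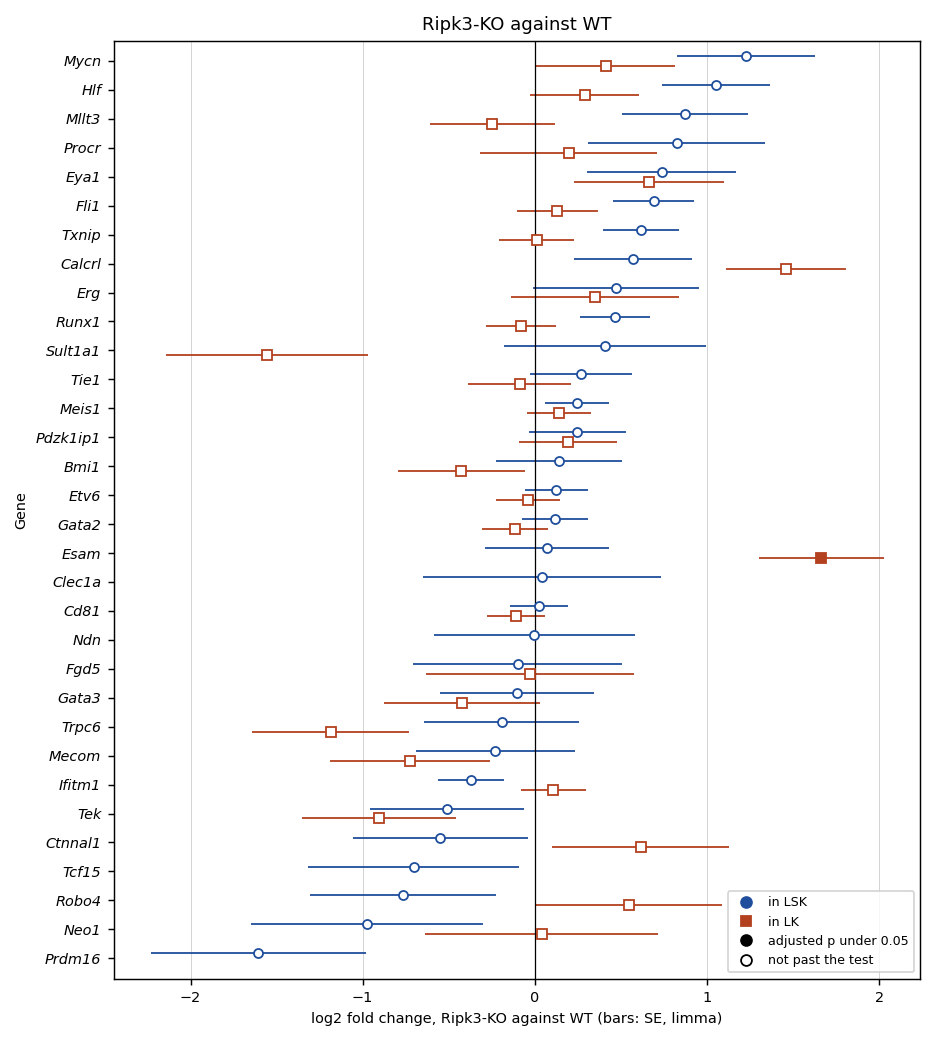
Log2 fold change of each member in Ripk3-KO against WT (x axis; bars are SE from limma) in LSK and in LK libraries, with filled symbols for an adjusted p under 0.05 and no symbol where the gene was too low to be tested. Esam in LK is the only filled symbol, at 1.66, and Mycn (1.23) and Prdm16 (-1.61) are the extremes in LSK.

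In LK cells the same question could be put for 28 members, because Prdm16, Tcf15, Clec1a and Ndn had a mean signal under 1. Of these, 1 passed the test, or 3.57%, against 0.473% of all 13949 genes, of which 0.1% were higher and 0.373% lower. Esam was higher in Ripk3-KO LK, with 7.23 and 9.31 against 1.77 and 2.06 in WT, a log2 fold change of 1.66 ± 0.36 (limma adjusted p = 0.0364). The Esam level in Ripk3-KO LK cells remained far below the 110 to 178 of LSK cells. An edgeR test of the reads called it as well (adjusted p = 0.0143), and DESeq2 called Esam and Calcrl. The call was lost when any of the 4 LK libraries was left out, with log2 fold changes of 1.5 to 1.83 and adjusted p from 0.0575 to 0.326, and its adjusted p over all alternatives ran from 1.32e-05 to 0.517.

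Calcrl was the next member, with WT LK libraries at 7.95 and 6.34 and Ripk3-KO LK libraries at 23.9 and 18.9, with a log2 fold change of 1.46 ± 0.35 that did not pass (limma adjusted p = 0.0685; 0.00302 to 0.880 over the alternatives). Trpc6 (-1.18 ± 0.46) and Sult1a1 (-1.56 ± 0.59, on 18 and 0 reads in Ripk3-KO) were the remaining members with an unadjusted p under 0.05. That level was reached by 14.3% of tested members and 6.56% of all genes. Groups without overlap were found for 12 of the 28 members, or 42.9%, against 40.0% of all genes (20.1% higher and 19.9% lower). The 95% interval stayed within 2-fold for 11 members, among them Hlf (-0.37 to 0.94), Meis1 (-0.25 to 0.53) and Pdzk1ip1 (-0.40 to 0.78).

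Values of other markers beside the Esam result were as follows. Ly6a, abundant in LSK cells, was at 4.12 and 0.124 in Ripk3-KO LK and 1.77 and 0.763 in WT LK, and Procr was at 1.20 and 0.869 against 0 and 2.14. The 12 endothelial markers summed to 145 and 202 in Ripk3-KO LK and 156 and 150 in WT LK. Most of this sum was Pecam1 (85.4 and 133 against 78.9 and 76.7) and Egfl7 (44.6 and 56.2 against 58.6 and 56.6). Of these markers limma called 0 of 6 tested, also at an unadjusted p under 0.05, and the rest were too low to be tested. The erythroid and megakaryocyte markers summed to 1900 and 2025 against 3158 and 2755, with Car2 lower by -0.73 ± 0.14 (limma adjusted p = 0.0165). The part of the erythroid, granule and sex differences in the Esam result was not tested.

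An interaction term compared the genotype effect of LSK cells with that of LK cells, and 0 of 32 members passed, against 0.358% of all 15901 genes. An unadjusted p under 0.05 was found for 3 members (Mllt3, Esam and Sult1a1), beside 10.1% of all genes, and edgeR called 0 and DESeq2 1, Esam. The Esam interaction was -1.59 ± 0.51 (limma adjusted p = 0.277), so the effect called in LK and not in LSK was not shown to differ between them. Sult1a1 had 1.96 ± 0.83 and Mllt3 1.12 ± 0.51 (adjusted p = 0.433 and 0.473).

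Some related genes were called between the genotypes, which cannot be told apart from sex here. F2r encodes the thrombin receptor PAR1 that activated protein C cleaves when bound to the Procr product. Its signal in LSK was 178 and 187 in WT and 94.8 and 70.3 in Ripk3-KO (log2 fold change -1.15 ± 0.24, limma adjusted p = 0.0133). F2r was the only one called of 15 tested ligands and partners of the receptors, against 2.16% of all genes. Ctbp1, a corepressor that binds the Mecom and Prdm16 products, was lower in Ripk3-KO LK, at 37.5 and 76.4 against 210 and 119 (-1.54 ± 0.29, adjusted p = 0.0125). It was the only one called of 20 tested partners of the transcription factors in LK, against 0.473% of all genes, and its LK libraries were uneven. Its interaction was 2.48 ± 0.42 (adjusted p = 0.00595), on LSK values of 145 and 144 in Ripk3-KO and 86.6 and 65.4 in WT. For the interaction it was the only one called of 21 tested partners, against 0.358% of all genes. Of the 30 further stem cell genes, limma called 0 in LSK (3 at an unadjusted p under 0.05) and 0 of 26 in LK (6 unadjusted). Of the Polycomb partners of Bmi1, it called 0 of 15 in LSK (6 unadjusted) and 0 of 14 in LK (2 unadjusted). An unadjusted p under 0.05 was reached by 17.9% of all genes in LSK and 6.56% in LK.

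Limits of the annotation touch some members. The strand setting of the read counting is not given in the sources used here, and 9 members have exons that overlap exons of a gene on the other strand: Mecom, Meis1, Gata3, Runx1, Etv6, Prdm16, Cd81, Sult1a1 and Txnip. Meis1, Bmi1, Ifitm1 and Txnip have near-identical copies in the annotation (at least 90% identity over 200 bases) that could share their reads, so their values are less certain.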

How the data were processed

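RNA-seq values were taken from 8 tables, 1 per library. Per the labels, RNA of sorted cells was made into stranded mRNA libraries, and the submitters' processing notes name TopHat and mm9. The aligner version, the counter and the annotation are not given in the sources used here. The tables are headed FPKM, but the signal deposited by the authors is a whole number of reads times 1 step per library (all values above 0, within 0.01), equal to CPM scaled by TMM factors of the LSK or the LK libraries. Reads were recovered by dividing by that step.

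Where the mean over the libraries of a contrast was 1 signal or more, a gene was tested with limma 3.58.1 (trend) in R 4.3.3 on log2(signal + 1), with 4 group means in 1 fit of 8 libraries, two-sided, and Benjamini-Hochberg adjustment over all genes tested. Fold changes are on that scale, which understates low genes. A called gene has an adjusted p under 0.05. LSK was compared with LK after TMM scaling over all libraries. An exact permutation test of 2 against 2 libraries cannot go below p = 0.333. Alternatives used edgeR 4.0.16, DESeq2 1.42.0, other filters, pseudocounts and scalings, and left out single libraries. The scripts were tested on simulated data. Gene lengths, overlaps and copies (by BLAST of transcripts) came from GENCODE M21 (GRCm38), and promoters from RefSeq (GRCm38.p6). The coordinates are not on mm9.

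The members and all lists were chosen with earlier results of these data known. All members were named. Of other lists, genes called in a genotype contrast or the interaction, and up to 4 with the largest changes called in both LSK to LK contrasts, could be named, with sort, sex and knockout checks. Cdh5, Ramp1 and Ramp2 were named after their values were seen.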

Additional observations from a re-analysis of the deposited data

How the results depend on the processing

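With 2 libraries per group, limits are set by the spread between libraries and, for some members, by few reads in LK. Among these members are Prdm16, Tcf15, Clec1a, Ndn, Procr and Fgd5, and Sult1a1 in Ripk3-KO. The LSK to LK counts of called members moved little: 18 to 25 in WT and 19 to 24 in Ripk3-KO over all alternatives, and 18 to 22 and 19 to 20 without 1 library. Of the 21 members called in both genotypes, 14 were called under every alternative in which they were tested. Among these, Tcf15 in Ripk3-KO was too low to be tested with the stricter filter. The other 7 lost a call under 1 or more alternatives: Mllt3, Eya1, Robo4, Clec1a, Fgd5, Sult1a1 and Txnip. Txnip lost its WT call only in limma without the trend (adjusted p = 0.0566). The Etv6 value in WT ran from -0.018 to 0.33 without 1 library, with the change of sign coming without the second LSK library, and was 0.53 as deposited and 0.65 after quantile normalization, where it was called, and Fli1 was called lower in WT with median-centred libraries or without that library. For Ripk3-KO against WT, a separate fit of LSK libraries called 1 member and DESeq2 called 2. In LK, no filter, quantile normalization, a separate fit and no trend called 0 and DESeq2 called 2, and leaving out 1 library gave 0 to 0. For the interaction DESeq2 called 1. The cause of these changes was not tested. A fit without 1 library leaves a lone sample that is assumed to vary like the other groups. Counts of all genes called moved more than those of members: 363 in LSK became 99 to 616, 66 in LK became 3 to 170, 57 for the interaction became 2 to 154, 3814 in WT fell to 1502 at the lowest, and 3072 in Ripk3-KO to 1489.

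The groups share replicate numbers. Deviations of same-numbered libraries correlated at -0.01 between WT and Ripk3-KO LSK and -0.09 between WT and Ripk3-KO LK. They correlated at -0.02 between WT LSK and LK and -0.14 between Ripk3-KO LSK and LK. With 2 libraries per group, these values cannot show whether same-numbered libraries came from the same mice. With the replicate block, 0 members were called for Ripk3-KO against WT in LSK, 1 in LK, 23 for LSK against LK in WT, 22 in Ripk3-KO and 0 for the interaction. A crossed pairing of the Ripk3-KO libraries, added after the data were seen, called 22 members and 3120 genes against 3072.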

Other observations

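Multipotent and lymphoid-primed progenitors share the LSK gate with stem cells, and some of their genes were higher in Ripk3-KO. In Ripk3-KO LSK cells 3 of 10 tested were higher and 0 lower, while 0.892% of all genes were called higher. The list was chosen with earlier results of these data known, so this difference in shares is not a test. Flt3, the receptor that marks multipotent progenitors losing stem cell potential, had 555 and 473 in WT and 874 and 886 in Ripk3-KO (log2 fold change 0.78 ± 0.19, limma adjusted p = 0.0298). Satb1, a chromatin organizer of lymphoid priming, had 49.8 and 63.2 against 125 and 126 (1.15 ± 0.29, adjusted p = 0.0443), and Il12a had 49.7 and 75.4 against 136 and 155 (1.23 ± 0.27, adjusted p = 0.0177). In LK cells limma called 0 of 10 (1 at an unadjusted p under 0.05), and for the interaction 0 of 11 (2 unadjusted).

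Of the 12 granulocyte-monocyte progenitor markers, 1 was called in Ripk3-KO LSK, against 2.16% of all genes. Of these markers, 10 of 12 had negative values (median -0.24). Gfi1, the called gene, encodes a repressor that restrains stem cell proliferation and had the opposite sign to those 10. It was at 5.36 and 10.4 in WT LSK and 34.4 and 26.9 in Ripk3-KO LSK (1.89 ± 0.43, limma adjusted p = 0.0238). Its interaction was 2.92 ± 0.61 (limma adjusted p = 0.0318), on uneven LK values of 70.5 and 35.9 in WT and 16.3 and 35.5 in Ripk3-KO. Of 11 erythroid and megakaryocyte markers, 1 was called. Gata1, the erythroid and megakaryocyte GATA factor that replaces GATA2 on shared sites, was at 57.4 and 38 in WT LSK and 22.2 and 14.7 in Ripk3-KO LSK (-1.32 ± 0.28, adjusted p = 0.0128), with Gata2 at 195 to 235. Of 10 immediate-early genes, 2 were called lower in LSK, where 6 had positive values (median 0.06), and 3 in LK (median -0.21), against 1.27% and 0.373% of all genes called lower. Nr4a1 and Atf3 were lower in Ripk3-KO in both populations and Junb in LK, with Nr4a1 at 1900 and 1909 against 941 and 881 in LSK (-1.06 ± 0.18, adjusted p = 0.00172) and 169 and 180 against 66.3 and 99.0 in LK (-1.10 ± 0.18, adjusted p = 0.00290). Genotype and sex differ together in all of these comparisons and cannot be told apart.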
